A study of Mus musculus with 24 samples.

Results

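The nuclear-encoded genes of the mitochondrial respiratory chain and of ATP synthase were examined for sites of Rev-erbα (gene Nr1d1), the heme-binding repressor of the circadian clock, in 3 mouse tissues. Members were all protein-coding genes of the mm9 GENCODE vM1 annotation whose symbol begins with Nduf, Uqcr, Sdha to Sdhd, Cox4 to Cox8 or Atp5. The rule gave 94 gene records with 93 distinct symbols, of 22350 protein-coding genes in all, because Ndufb8 is annotated as 2 overlapping records. Of the 94, 83 were classed by symbol as subunits (37 of complex I, 4 of complex II, 8 of complex III, 19 of complex IV and 15 of ATP synthase). Ndufa4 and Cox7a2l were counted with complex IV, and the class of a gene was not checked against the protein. A further 4 are assembly factors of complex I and 2 of complex II, and 5 carry a matching symbol without being a standard subunit (Cox4nb, Ndufa4l2, Atp5l-ps1, Atp5s and Atp5sl).

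The series held 24 samples in 16 groups, and 3 groups were used. All precipitated Rev-erbα: ChIP-seq from epididymal white fat (eWAT, 2 libraries), ChIP-seq from brain, namely its ventral tegmental area (1 library), and ChIP-exo from liver (2 libraries). The mice were wild type, with no treatment named in the labels (strain C57BL/6, genotype C57BL/6J Wild Type), the tissue was taken at zeitgeber time 10, that is 10 h after lights on, and no age was given. Each group was represented by 1 list, so no spread between replicates and no test between conditions could be had, and the read depth behind each list was unknown.

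Complexes I to IV pass electrons from NADH and succinate to oxygen, complexes I, III and IV pump protons across the inner mitochondrial membrane, and ATP synthase uses the resulting gradient to make ATP. Most of the subunits are encoded in the nucleus, often from CpG-rich promoters, and their transcription is known to depend on NRF1, GABPA, YY1 and the estrogen-related receptors together with coactivators of the PGC-1 family. Rev-erbα binds DNA at an AGGTCA half-site with an A/T-rich flank, or at pairs of such half-sites, and recruits the NCoR and HDAC3 corepressors. It is also found at sites without such an element, and it has been linked to mitochondrial content in muscle.

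The eWAT list held 9016 peaks (authors' scores 10.1 to 282, median 14.2) and the brain list 10687 peaks (14.5 to 516, median 25.5), each 150 bp wide. A score is the authors' own and ranks sites within its list only. In ChIP-exo an exonuclease digests the DNA on the beads until it meets the bound protein, and the liver list gives the positions (borders) where trimming stopped on each strand, each with the authors' signal. A plus-strand border was joined to the next minus-strand border 5 to 60 bp downstream, which gave 26535 border pairs on chromosomes 1 to 19 and X. The signal of a pair is the lower of its 2 border signals (median 0.535). Of the marker genes of each tissue, 6 of 7 adipocyte genes lay within 10 kb of an eWAT peak and 6 of 6 hepatocyte genes within 10 kb of a liver pair. In brain, 3 of 6 neuron genes (Elavl3, Snap25 and Map2, annotated as Mtap2) and 1 of 4 glia genes (Olig1) had a peak, and Rbfox3, Syt1, Tubb3, Gfap, Mbp and Aldh1l1 had none. In eWAT, Lep had none, while both endothelial genes (Cdh5 and Pecam1), 1 of 3 macrophage genes (Lyz2), 2 of 4 glia genes and 1 of 6 neuron genes had one. In brain, 3 of 7 adipocyte genes (Cidec, Lep and Lipe) and 1 macrophage gene (Cd68) had a peak, and neither endothelial gene did. No hepatocyte gene had a peak in eWAT or brain, and 6 adipocyte, 1 neuron, 2 glia and 0 macrophage or endothelial genes had a liver pair.

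Sequences are shown first for some of the named sites, read from mm9 on the strand of the member. They were picked for a motif match or a border pair inside a peak. The first pair shows what lies between paired liver borders inside a peak of another tissue. These are the upstream part of the eWAT peak at Atp5sl (chr7:26404326-26404432, plus strand) and the brain peak at Atp5g2 (chr15:102501548-102501697, minus strand). Capitals mark the stretch from the plus border to the minus border.
Atp5sl: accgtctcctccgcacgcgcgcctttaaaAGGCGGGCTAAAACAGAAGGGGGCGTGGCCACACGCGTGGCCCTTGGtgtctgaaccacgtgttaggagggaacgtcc
Atp5g2 in brain: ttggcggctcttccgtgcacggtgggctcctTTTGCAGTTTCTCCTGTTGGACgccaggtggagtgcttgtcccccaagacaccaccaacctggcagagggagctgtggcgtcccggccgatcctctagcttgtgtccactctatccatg

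The next set shows an eWAT peak and 101 bp windows centred on liver border pairs each with an exact motif match in capitals. Shown for eWAT is Atp5g2 (chr15:102502297-102502446, minus strand; GGGCGG read from the other strand). Shown for liver are the windows near Ndufs6 (chr13:73468349-73468449, minus strand; AAGATGGCG, then AGGTCA overlapping CACGTG) and Atp5j (chr16:84836512-84836612, minus strand; GCGCATGCG on both strands, then AGGTCA). The last liver windows are those of Atp5g1 (chr11:95937257-95937357, minus strand; CACGTG) and Cox8b (chr7:148089293-148089393, minus strand; AGGTCA read from the other strand, then CACGTG). Here capitals mark motif letters and not the stretch between borders. All marked letters at Ndufs6 and Cox8b lay outside the paired borders. Those at Atp5g1, and GCGCATGCG at Atp5j, lay between the borders.
Atp5g2 in eWAT: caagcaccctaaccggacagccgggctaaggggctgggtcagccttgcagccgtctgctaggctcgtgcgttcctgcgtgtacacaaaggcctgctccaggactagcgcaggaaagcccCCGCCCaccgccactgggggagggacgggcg
Ndufs6: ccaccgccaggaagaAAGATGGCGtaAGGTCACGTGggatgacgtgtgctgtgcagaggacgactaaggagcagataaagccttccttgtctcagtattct
Atp5j: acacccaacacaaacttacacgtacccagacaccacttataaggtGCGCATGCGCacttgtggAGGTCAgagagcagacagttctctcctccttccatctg
Atp5g1: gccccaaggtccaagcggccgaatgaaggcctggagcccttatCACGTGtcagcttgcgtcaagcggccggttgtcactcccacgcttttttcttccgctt
Cox8b: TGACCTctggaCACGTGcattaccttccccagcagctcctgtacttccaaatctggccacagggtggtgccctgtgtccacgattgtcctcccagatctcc

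Respiratory chain genes had sites near their starts at different rates in the 3 lists. In eWAT 13 of 94 had a peak within 10 kb of a transcription start (13.8%, 95% Wilson interval 8.26 to 22.24), against 14.2% of the 22256 other protein-coding genes. In brain 38 had one (40.4%, 31.07 to 50.53), against 27.8%. In liver 61 had a border pair (64.9%, 54.83 to 73.78), against 34.9%. Within 50 kb the counts were 41 (43.6%, against 38.8%) in eWAT, 68 (72.3%, against 51.0%) in brain and 82 (87.2%, against 60.4%) in liver. The eWAT share was thus near that of other genes, and the brain and liver intervals within 10 kb lay above the share of other genes. With each site given only to its nearest gene at any distance, the brain count was 29 (30.9%, against 29.6%) and the liver count 59 (62.8%, against 39.3%). With only sites closer to the member than to any other gene and within 10 kb, they were 27 (28.7%, against 22%) and 52 (55.3%, against 28.6%). These intervals cover counting error only, and since genes can share a site they are too narrow by an unknown amount.

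Close to the start the liver excess was larger in proportion. Within 1 kb, 48 members had a liver pair (51.1%, 41.12 to 60.93, against 19.6%), 28 a brain peak (29.8%, 21.48 to 39.68, against 18.3%) and 3 an eWAT peak (3.19%, 1.09 to 8.97, against 3.59%). In the 200 bp just upstream of the 5′ end of the gene, 26.6% of members had a liver pair and 6.81% of other genes did. In the 200 bp just downstream the liver shares were 13.8% and 4.01%. For brain the upstream shares were 10.6% and 6.48% and the downstream shares 11.7% and 3.77%. The median distance of the closest site was 87 bp for the members with a brain peak and 96 bp for those with a liver pair, while it was 1616 bp in eWAT. The plot of distance to the 5′ end shows liver pairs and brain peaks concentrated at the start and eWAT peaks scattered.

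**Figure D1:**
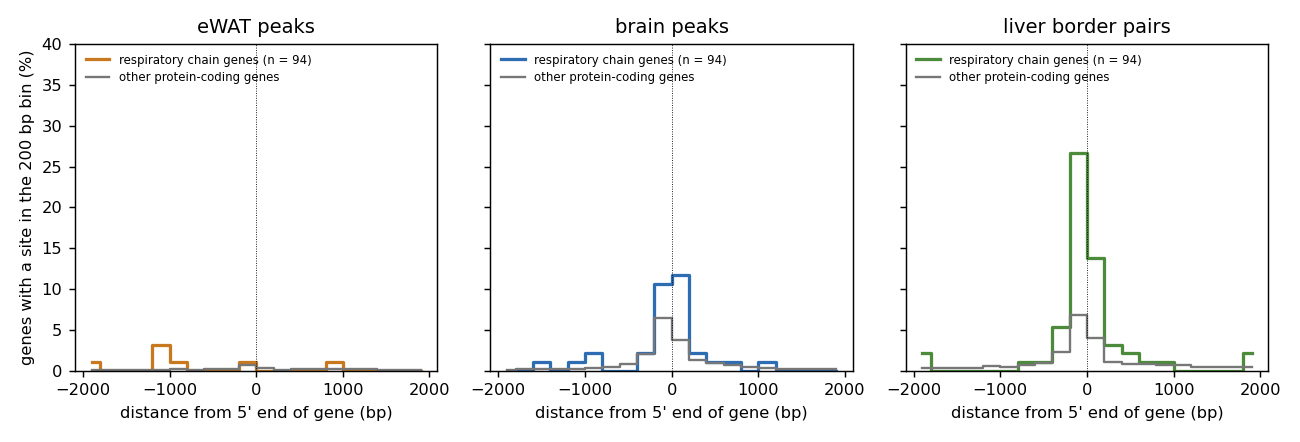
Share of genes (%, vertical axis) with a site in each 200 bp bin of distance from the 5′ end of the gene (bp, horizontal axis), for eWAT peaks, brain peaks and liver border pairs, with the 94 respiratory chain genes in colour and other protein-coding genes in grey. The liver line of the respiratory chain genes reaches 26.6% just upstream of the 5′ end, against 6.81% for other genes, and the brain line reaches 11.7% just downstream, against 3.77%.

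The comparison lists had rates of a similar size. Of the 76 mitochondrial ribosome genes (Mrpl and Mrps symbols), 9.21% had an eWAT peak, 43.4% a brain peak and 65.8% a liver pair within 10 kb. Of the 85 cytosolic ribosome genes (Rpl and Rps symbols), 18.8%, 45.9% and 62.4% did. Within 1 kb the liver shares were 46.1% and 45.9%, both inside the interval of the respiratory chain genes. The bar plot of these lists shows that the brain and liver rates of the respiratory chain genes were not set apart from those of either ribosome list.

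**Figure D2:**
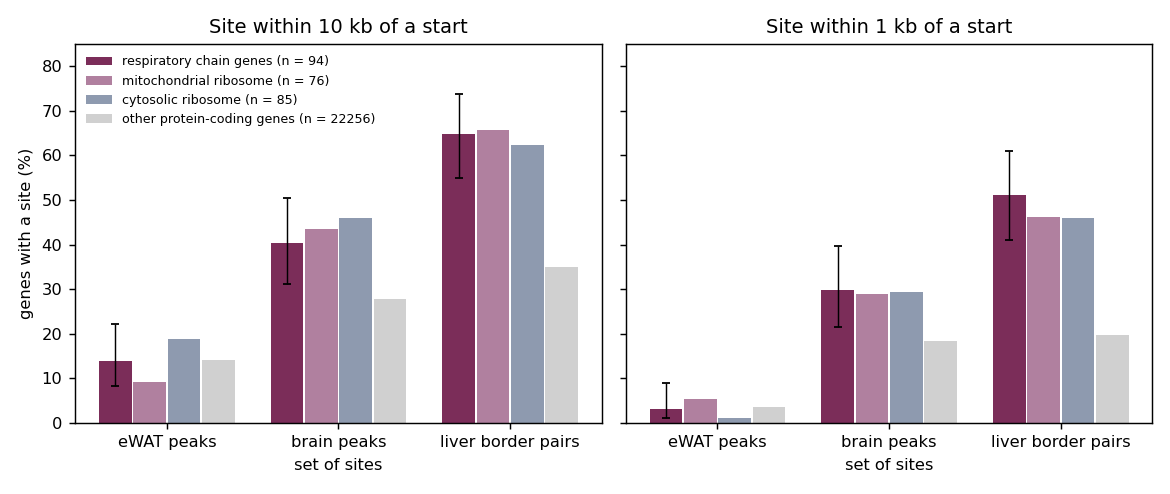
Share of genes (%, bars) whose nearest site lies up to 10 kb (left) or 1 kb (right) from a transcription start, for eWAT peaks, brain peaks and liver border pairs, in respiratory chain genes, mitochondrial ribosome genes, cytosolic ribosome genes and all other protein-coding genes. Error bars on the respiratory chain genes are 95% Wilson intervals (counting error only), and the 3 gene groups stand at 62.4% to 65.8% in liver within 10 kb, against 34.9% of other genes.

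Promoters of the members differed from those of other genes in CpG content and in their neighbours. In the window from 250 bp upstream to 50 bp downstream of the 5′ end, the median ratio of observed to expected CpG was 0.781 in members and 0.532 in other genes. A CpG-rich promoter (GC of at least 55% and a ratio of at least 0.6) was present in 48 members (51.1%) and in 37.3% of other genes. Among genes with a CpG-rich promoter, a brain peak lay within 10 kb of 43.8% of members and 43.2% of other genes, so the 2 shares were about equal there. Within 1 kb the brain shares were 39.6% and 32.8%. A liver pair lay within 1 kb of 54.2% of the CpG-rich members and 29.7% of the other CpG-rich genes. Among the 46 members without such a promoter, 47.8% had a liver pair within 1 kb, against 13.6% of the like other genes, and 19.6% had a brain peak, against 9.59%. An eWAT peak within 1 kb was found for 4.17% of the CpG-rich members, against 4.86%, and for 2.17% of the others, against 2.84%. The liver share was thus higher in members in both promoter classes, and the brain share within 10 kb only in the class without CpG-rich promoters (37.0% against 18.7%).

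**Figure D3:**
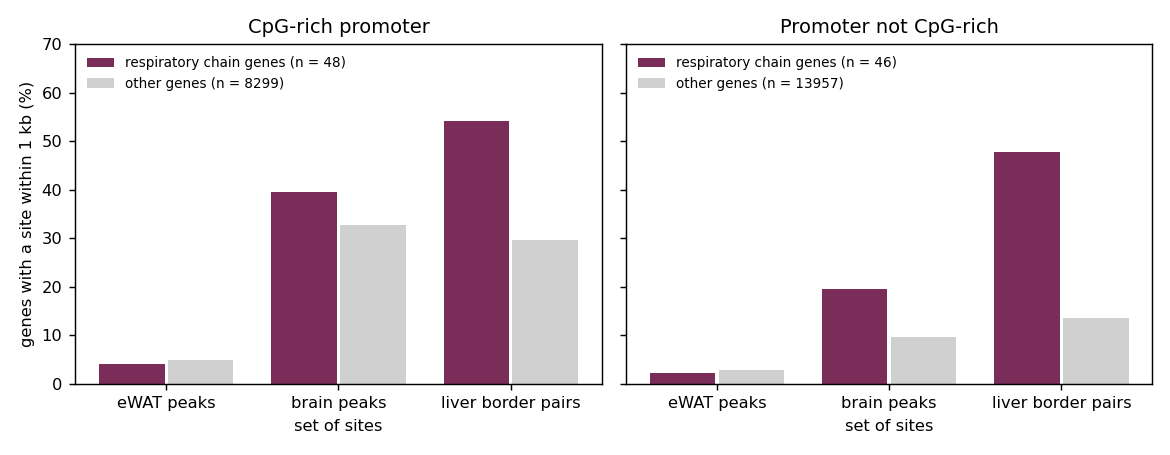
Share of genes (%, bars) having a site up to 1 kb from a start, for genes with a CpG-rich promoter (left) and without (right), by set of sites. In liver the respiratory chain genes stand at 54.2% and 47.8% in the 2 classes and other genes at 29.7% and 13.6%, while the eWAT bars of both groups stay under 5%.

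Many members share a promoter region with a neighbour. Of the 94, 33 (35.1%) had the start of another protein-coding gene on the opposite strand within 1 kb, against 11.9% of other genes. Among these, 51.5% had a liver pair within 1 kb (other genes with such a neighbour 36.4%), 27.3% a brain peak (34.9%) and 3.03% an eWAT peak (4.42%). Within 10 kb the shares were 57.6% in liver (53.2%), 33.3% in brain (44.7%) and 3.03% in eWAT (1 of 33, against 17.7%). Among the 61 members without such a neighbour the liver share within 1 kb was 50.8%, against 17.4%, and the brain share 31.1%, against 16.0%. Within 10 kb their shares were 68.9% in liver (against 32.4%), 44.3% in brain (against 25.6%) and 19.7% in eWAT (against 13.7%). A site near a shared start cannot be given to 1 of the 2 genes. Of the 48 brain peaks near members, 29 lay nearest to the start of the member and 19 nearest to another gene, 15 of these within 1 kb of that gene's start. Of the 117 liver pairs, 80 lay nearest to the member and 37 to another gene, and of the 14 eWAT peaks 11 and 3.

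The sites near members were of ordinary to low rank in their lists. The 14 eWAT peaks had a median score of 16.2 (list median 14.2) and 1 lay in the top decile of the list. The 48 brain peaks had a median score of 30.9, against 29.1 for peaks near other genes, and 4 lay in the top decile. The 117 liver pairs had a median signal of 0.390, against 0.520 near other genes, with a highest value of 1.49 against 166. Only 10 of them reached a signal of 1 (8.55%, against 14.5%). Pairs closer than 100 bp were also merged into loci, which gave 86 near members. Among loci within 1 kb of a start the median signal was 0.389 near members (68 loci) and 0.483 near other genes (4509 loci). Liver pairs were therefore frequent at respiratory chain genes and mostly weak. With both borders held to the authors' p of 0.01 or less, 4 members kept a pair (Atp5k, Ndufb7, Ndufc1 and Ndufc2), 4.26% against 2.92% of other genes.

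**Figure D4:**
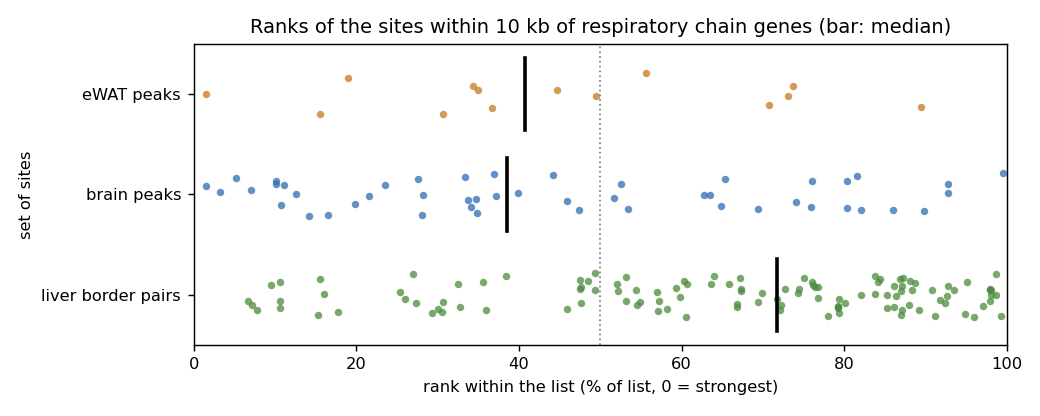
Rank of each site within 10 kb of a respiratory chain gene as a percentage of its list (horizontal axis, 0 is the strongest), for 14 eWAT peaks, 48 brain peaks and 117 liver border pairs; points are spread vertically for legibility and black bars are medians. Of the sites, 9 of 14 in eWAT, 28 of 48 in brain and 32 of 117 in liver rank above the median of their list.

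Complex I, the NADH dehydrogenase, is the largest of the complexes. Of its 37 subunit records, 7 had an eWAT peak within 10 kb (18.9%, against 14.2% of other genes). A brain peak was found for 12 (32.4%, against 27.8%) and a liver pair for 28 (75.7%, against 34.9%). Of these 28, 22 had a liver pair within 1 kb (59.5% of the 37, against 19.6%). Ndufa6, an accessory subunit of the matrix arm, had the second-best brain peak of all members, in its exon 24 bp downstream of the start (chromosome 15, 82184622 to 82184771, score 76.4, rank 340). Its eWAT peak was a different site 7249 bp upstream (82191895 to 82192044, intergenic, score 26.3, rank 1400), and its strongest liver pair a further one 4891 bp upstream (signal 0.518). Ndufs8, a core iron-sulfur subunit, likewise had its brain peak at the start (87 bp downstream, chromosome 19, 3912555 to 3912704, rank 3003), its eWAT peak 1986 bp upstream in an intron of Aldh3b1 (rank 6644) and its liver pair 2337 bp downstream (signal 0.698). For these genes a site in all 3 lists did not mean the same site in all 3.

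Other eWAT peaks of complex I lay near Ndufv3, Ndufb7 and Ndufb8. Ndufv3, a small subunit of the NADH-oxidising module, had one in its own intron 819 bp downstream of the start (chromosome 17, 31657874 to 31658023, score 18.2, rank 3099). Ndufb7, a membrane-arm subunit, had one 9349 bp downstream in an intron of Tecr (chromosome 8, 86099931 to 86100080, score 17.2, rank 3310). Both also had a liver pair at the start, 4 bp downstream at Ndufv3 (signal 0.441) and 1 bp upstream at Ndufb7 (0.351). The 2 records of Ndufb8, another membrane-arm subunit, shared 1 eWAT peak (chromosome 19, 44619348 to 44619497, score 14.2, rank 5010) that was nearest to Sec31b. They also shared a brain peak at the start (44629771 to 44629920, score 21.8, rank 9912) that holds the centre of a liver pair (signal 0.485), so Ndufb8 counts as 2 in the counts of records within 10 kb. Within 1 kb it counts once in brain and once in liver, because the sites lie over 1 kb from the start of the other record, and shared sites count once among the distinct sites.

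In brain, further well-ranked complex I genes after Ndufa6 were Ndufa7, Ndufs7 and Ndufb6. Ndufa7, an accessory subunit, shares its start region with Rps28, a cytosolic ribosome gene. Its 3 brain peaks lay in an exon of Kank3 (7018 bp upstream, score 58.2, rank 759), at the Rps28 start (score 40, rank 2306) and at its own start (37 bp downstream, score 29.1, rank 5061). The peak at Rps28 (chromosome 17, 33961390 to 33961539) holds the liver pair with the highest signal near any member, 1.49, with borders 29 bp apart and of signal 2.70 and 1.49, 4 bp from the Rps28 start. The pair ranked 1758 of 26535, and it was nearer to the ribosome gene than to Ndufa7. Ndufs7, a core iron-sulfur subunit, had a brain peak in its intron, centred 20 bp downstream of a start (chromosome 10, 79712175 to 79712324, score 47.3, rank 1347), and that of Ndufb6 with the best rank lay 9787 bp away at Topors (score 43.6, rank 1511).

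Further liver pairs stood at complex I genes with no peak in the other tissues. Ndufs6, a zinc-binding subunit, had 3 overlapping pairs that share 1 minus border (signal 1.20, 2388 to 2412 bp upstream). They lay 55 to 79 bp from the start of Mrpl36, a mitochondrial ribosome gene, and the window printed above holds AAGATGGCG, the YY1 motif, beside the AGGTCA and CACGTG letters. Ndufa10, an accessory subunit, had a pair 40 bp downstream of its start (chromosome 1, 94370382 to 94370413, signal 1.02). Ndufs4, an accessory subunit needed for complex I stability, had 3 pairs in exonic sequence at its start, of which the strongest had a signal of 0.740 and lay 44 bp downstream. Of the 4 assembly factors of complex I, Ndufaf4 had sites in all 3 lists, with a brain peak 10 bp upstream of the start (score 29.1, rank 4259), an eWAT peak 1076 bp upstream (score 10.1, rank 8064) and a liver pair 1900 bp upstream (signal 0.511).

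Complex II (succinate dehydrogenase) and complex III (the cytochrome bc1 complex) had sites in brain and liver. None of their 12 subunit genes had an eWAT peak within 10 kb, a count too small to be set apart from the 14.2% of other genes that had one. Sdhb, the iron-sulfur subunit, had a brain peak in its intron (3422 bp downstream, score 25.5, rank 5616) and 3 weak liver pairs (signals 0.199 to 0.282), and Sdhc and Sdhd, the membrane anchors, had liver pairs at their starts (0.260 and up to 0.512). Sdha, the flavoprotein, had none. Sdhaf1, an assembly factor for complex II, had its strongest liver pair 8256 bp downstream in an exon of Alkbh6 (signal 0.950). In complex III, Uqcrh, the hinge protein, had a brain peak 385 bp upstream of its start and 7 bp from that of Lrrc41 (chromosome 4, 115747986 to 115748135, score 36.4, rank 2511). Uqcrq, a small subunit next to the quinone site, had a brain peak 65 bp upstream of its start (score 32.7, rank 3644), 3 liver pairs in its exon (up to 0.770) and a stronger pair at Leap2, a gene of a liver antimicrobial peptide (signal 1.38, 7201 bp downstream). Uqcrb and Uqcrc1 had a brain peak and a liver pair within 100 bp of the start, and the sites of the 2 lists overlapped at Uqcrb only.

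Complex IV (cytochrome c oxidase) had the lowest liver share of the 4 complexes and ATP synthase. Of its 19 genes, 8 had a liver pair within 10 kb (42.1%, against 34.9% of other genes) and 4 within 1 kb (21.1%, against 19.6%). Within 10 kb 7 had a brain peak (36.8%, against 27.8%) and 1 an eWAT peak (5.26%, against 14.2%). The 19 include the isoforms known for restricted tissues. That 1 was Cox4i2, an isoform of subunit 4 known from lung and low oxygen, with a peak in its intron 1616 bp downstream of the start (chromosome 2, 152582371 to 152582520, score 15.2, rank 4028) and no site in brain or liver. Its widely expressed counterpart Cox4i1 had no site in any list, nor had Cox5a, Cox5b and Cox7c. Cox6a1, the widely expressed isoform of subunit 6a, had a brain peak 7722 bp downstream at the start of Gatc (score 61.8, rank 559) and a weaker one 212 bp upstream of its own start (rank 5706). Cox7a2 had a brain peak 68 bp downstream of its start (score 32.7, rank 3567) and the second-strongest liver pair near a member, 2353 bp upstream (chromosome 9, 79609993 to 79610034, signal 1.42).

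Among the isoforms of complex IV known for restricted tissues, Cox6a2, Cox6b2, Cox7b2 and Cox8c had no site in any list, as did 49.1% of other genes. Cox8b, the isoform of muscle and brown fat, had a liver pair 2998 bp upstream (signal 0.765, printed above) and no eWAT or brain peak. Cox7a1, likewise of muscle and brown fat, had a brain peak 1151 bp downstream (score 21.8, rank 8117) and a liver pair nearest to Capns1 (signal 0.264). Its closest eWAT peak lay 10035 bp away, just outside the 10 kb limit, while that of Ndufb7 at 9349 bp lay just inside. In brain Cox7b (7770 bp) was the farthest inside and Ndufv2 (10035 bp) the nearest outside, and in liver these were Ndufb6 (9469 bp) and Atp5j2 (12464 bp).

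ATP synthase had the highest liver share of the 5 complexes within 10 kb (12 of 15 genes, 80.0%). Within 1 kb 11 of 15 had a liver pair (73.3%, against 19.6% of other genes), while in complex II 3 of 4 did. Within 10 kb 8 had a brain peak (53.3%, against 27.8%) and 3 an eWAT peak (20.0%, against 14.2%). The liver share of other genes within 10 kb was 34.9%. The strongest brain peak near any member lay 145 bp upstream of Atp5g2, one of 3 genes for the c subunit of the membrane rotor (chromosome 15, 102501548 to 102501697, score 98.2, rank 162). A liver pair with a signal of 0.787 and borders 21 bp apart lay inside this peak, in the stretch printed in capitals above. Atp5g2 also had the only eWAT peak near a member that overlapped a brain peak. It lay 894 bp upstream (102502297 to 102502446, score 19.2, rank 2764) and overlapped a weaker brain peak (102502273 to 102502422, score 25.5, rank 6705). Near other genes 10.3% of eWAT peaks overlapped a brain peak, against 1 of 14 here (7.14%, 1.27 to 31.47).

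The other genes of the c subunit had their own patterns. Atp5g1 had an eWAT peak 1157 bp upstream (chromosome 11, 95938066 to 95938215, score 12.2, rank 6376) and a liver pair 323 bp upstream (signal 1.003), and no brain peak. Atp5g3 had a liver pair alone. Atp5o, the subunit that ties the stator to the catalytic head, had a brain peak at its start (13 bp downstream, chromosome 16, 91931844 to 91931993, score 50.9, rank 1144), an eWAT peak 6601 bp upstream (score 12.2, rank 6584) and a weak liver pair 136 bp upstream (0.284).

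Atp5b, the catalytic beta subunit, had 2 brain peaks of score 50.9 (ranks 1081 and 1082), 121 bp upstream of its start and 7753 bp downstream in an intron of Baz2a. Atp5j, a stator subunit, shares a start region with Gabpa, which encodes the ETS-family activator GABPA of respiratory genes. The brain peak there lay 64 bp from the Atp5j start and 15 bp from that of Gabpa (chromosome 16, 84835111 to 84835260, score 43.6, rank 1761). The liver pair of Atp5j (signal 1.03, borders 27 bp apart) lay 692 bp upstream in an intron of Gabpa, on the NRF1 letters printed above. Atp5d, the delta subunit of the rotor stalk, had its best brain peak 67 bp from the start of Dos (score 40, rank 2120).

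Atp5sl, named for its likeness to Atp5s and known as an assembly protein of complex I, had the strongest eWAT peak of the group. It lay 32 bp upstream of the start (chromosome 7, 26404326 to 26404475, intergenic, score 67.9, rank 136), the only eWAT peak near a member within 200 bp of a start and the only one with a liver pair within 100 bp. That pair had a signal of 1.26 and borders 46 bp apart. No brain peak lay within 10 kb.

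Taking the 3 lists side by side, 8 of 94 records had a site within 10 kb in every list (8.51%, 4.38 to 15.9, against 4.24% of other genes), among them Atp5g2, Atp5o, Ndufa6, both records of Ndufb8, Ndufs8 and Ndufaf4. Brain and liver without eWAT held 21 (22.3%, against 11.6%): Atp5a1, Atp5b, Atp5d, Atp5h, Atp5j, Ndufa2, Ndufa7, Ndufb6, Ndufc1, Ndufs7, Ndufaf3, Sdhb, Uqcrb, Uqcrc1, Uqcrq, Cox6a1, Cox7a1, Cox7a2, Cox7a2l, Cox7b and Ndufa4l2. Liver alone held 28 (29.8%, against 15.4%). Complex I subunits make up 37 of all 94 records and 16 of these 28 (Ndufa5, Ndufa8, Ndufa9, Ndufa10, Ndufab1, Ndufb2, Ndufb4, Ndufb5, Ndufc2, Ndufs1, Ndufs3, Ndufs4, Ndufs5, Ndufs6, Ndufv1 and Ndufv2). The others are Atp5c1, Atp5f1, Atp5g3, Atp5k, Sdhc, Sdhd, Uqcr11, Cox6c, Cox8b, Ndufa4, Ndufaf1 and Sdhaf1. Brain alone held 9 (9.57%, against 9.71%): Atp5j2, Ndufa12, Ndufb10, Ndufaf2, Sdhaf2, Uqcrh, Cox6b1, Cox8a and Atp5s. With the third list disregarded, eWAT and brain shared 8 (8.51%, against 6.56%) and eWAT and liver 12 (12.8%, against 7.96%). The eWAT list shared 4 with liver alone (Atp5g1, Ndufb7, Ndufv3 and Atp5sl; 4.26%, against 3.72%), 0 with brain alone (against 2.32%) and had 1 by itself (Cox4i2; against 3.94%). Within 1 kb, 1 member had a site in all 3 lists (Atp5g2; 1.06%, against 0.782%) and 13 had one in both brain and liver (13.8%, against 7.21%). No site in any list was found for 23 (24.5%, 16.89 to 34.05, against 49.1%). Those not yet named are Atp5e, Atp5l, Ndufa1, Ndufa3, Ndufa11, Ndufa13, Ndufb3, Ndufb9, Ndufb11, Uqcr10, Uqcrc2, Uqcrfs1, Atp5l-ps1 and Cox4nb.

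**Figure D5:**
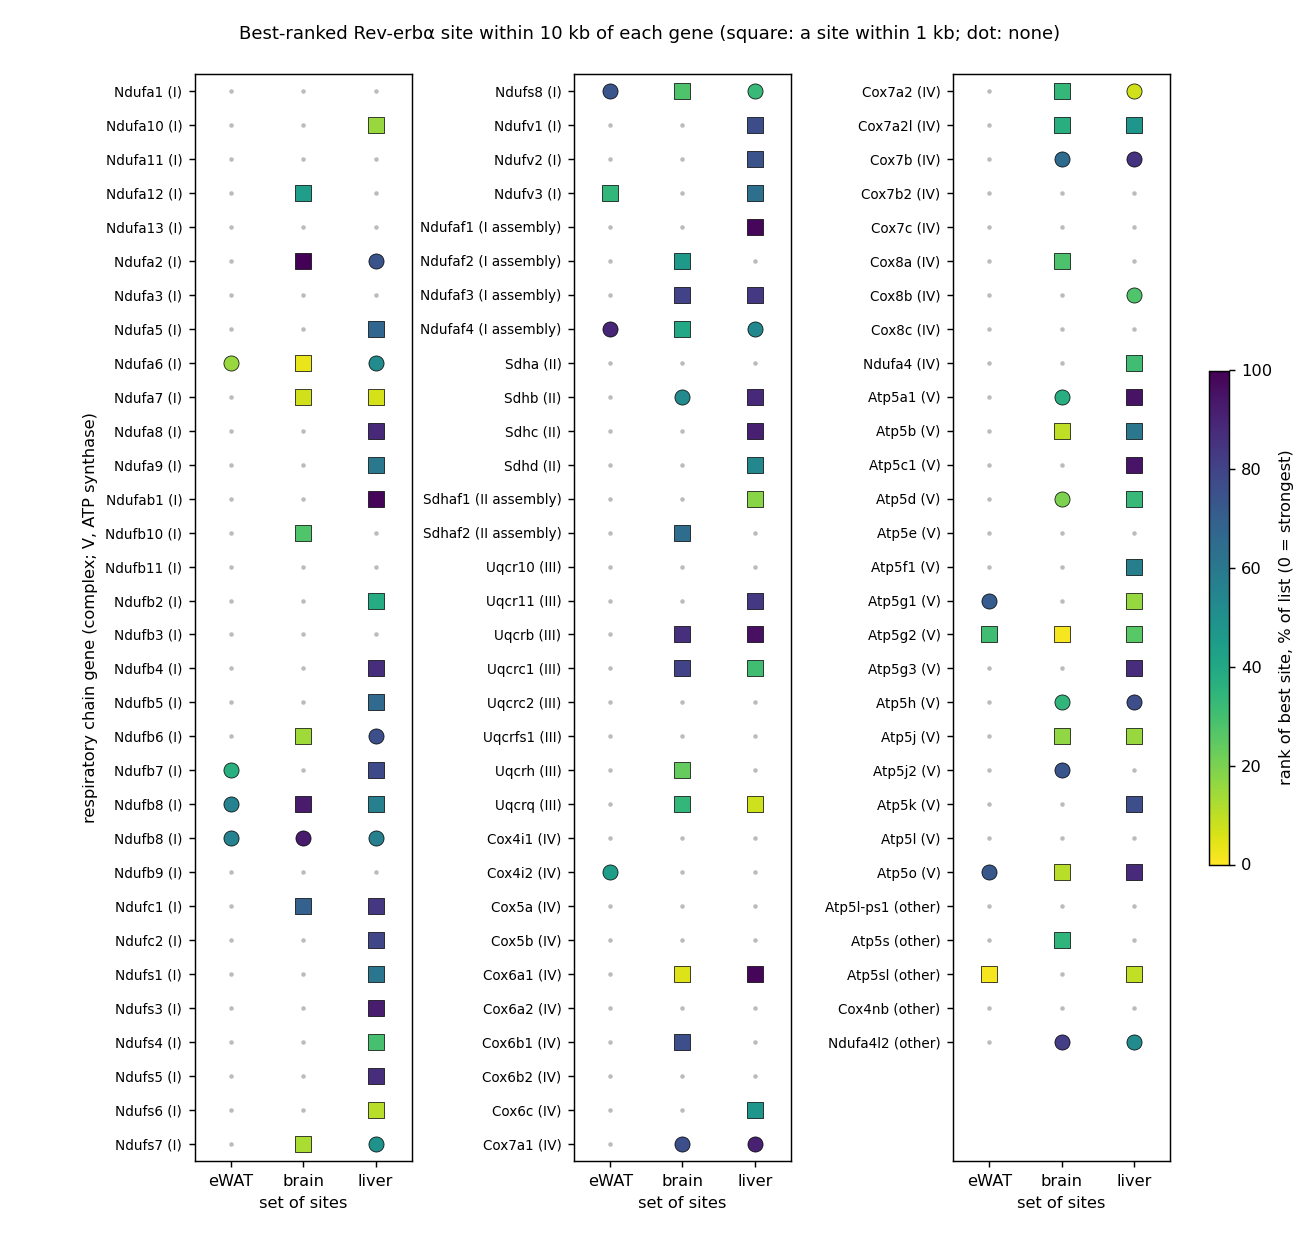
Each of 93 of the 94 respiratory chain gene records (rows, complex in brackets) with its best-ranked site within 10 kb in eWAT, brain and liver (columns), coloured by rank as a percentage of the list (0 is the strongest); a square marks a gene with any site of that list within 1 kb, a circle one without, and a small dot no site. Filled symbols are most frequent in the liver column, then brain, then eWAT (61, 38 and 13 over all 94 records).

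Peaks of the other tissues often had a liver border close by. Counting from the peak centre, 31 of the 48 brain peaks near members had a liver border within 100 bp (64.6%, 50.44 to 76.57, against 48.5% of brain peaks near other genes). In eWAT this held for 7 of 14 (50.0%, 26.8 to 73.2, against 36.1%). A border pair there was rarer, with 9 of 48 brain peaks (18.8%, against 14.0%) and 1 of 14 eWAT peaks (7.14%, against 13.8%). Brain peaks near members lay within 1 kb of a start more often than those near other genes (81.2% and 65.1%), and liver borders are dense at member starts, with a median of 5 within 1 kb against 1. The part of start position in these shares was not tested.

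Motif letters were looked for in both orientations, up to 50 bp to either side of a site's centre. The Rev-erb response element (the half-site with its A/T-rich flank) matched in 0 of 14 eWAT peaks, 0 of 48 brain peaks and 0 of 86 liver loci near members (the last with an upper limit of 4.28%). It was rare near other genes too (2.07%, 0.795% and 0.379%), so counts of this size could not show a difference. The half-site AGGTCA alone, which is part of that element, was found in 2 of 14 eWAT peaks (one of them at Atp5o; 14.3%, against 12.2%) and 7 of 48 brain peaks (14.6%, against 6.40%). It was found in 12 of 86 liver loci (14.0%, 8.17 to 22.82, against 14.0%). Among the 68 liver loci within 1 kb of a start it was found in 10 (14.7%, 8.19 to 25.0, against 8.36%), and among brain peaks there in 6 of 39 (15.4%, against 4.74%).

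Motifs of known activators of respiratory genes were seen at some sites. The NRF1 letters GCGCATGCG lay in 6 of 86 liver loci near members (6.98%, 3.24 to 14.4, against 0.887%). In brain they lay in 0 of 48 peaks, against 0.552% near other genes, too few peaks to show a difference. Of the 6 liver loci, 5 lay at Atp5j, Atp5k, Cox6a1, Cox6c and Uqcrc1. The sixth lay 7838 bp downstream of the Uqcr11 start in an intron of Mbd3, 494 bp from the Mbd3 start, and the pair at the Uqcr11 start itself held no searched motif. Within 1 kb of a start the liver shares were 8.82% and 1.77%. The YY1 letters AAGATGGCG lay in 3 of 86 liver loci (3.49%, against 0.398%) and in 4 of 48 brain peaks (8.33%, against 0.568%), those at Ndufa6, Ndufc1, Ndufs7 and Uqcrh. The locus count takes the window of the best-ranked pair only, so the YY1 letters in the Ndufs6 window printed above are not in it. The ETS letters CCGGAAGT lay in 3 brain peaks (6.25%, against 1.67%) and 1 liver locus (1.16%, against 1.32%). The ERR letters TCAAGGTCA, which contain AGGTCA, lay in none of the 3 sets near members. They were rare near other genes too (0.159% in eWAT, 0.195% in brain and 0.438% of liver loci), so these counts could not show a difference. The SP/KLF letters GGGCGG lay in 22.9% of brain peaks and 14.0% of liver loci near members (22.8% and 11.0% near other genes). Within 1 kb of a start they lay in 23.1% and 13.2% near members, both under the 31.3% and 20.4% near other genes. The E-box letters CACGTG, in capitals above at Ndufs6, Atp5g1 and Cox8b, were not more frequent in liver loci near members. They lay in 8 of 86 (9.3%, against 11.7%), and in 4 of 48 brain peaks (8.33%, against 7.81%). Within 1 kb of a start the shares were 8.82% against 13.8% in liver and 5.13% against 9.11% in brain. A match is a description of the sequence only.

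The promoters themselves, with or without a site, carried these letters too. NRF1 letters were present in 8 of 94 promoters (8.51%, against 2.08% of other promoters of the same 300-base window), YY1 letters in 6 (6.38%, against 1.82%), ERR letters in 2 (Atp5g3 and Sdhd, 2.13%, against 0.350%) and AGGTCA in 20 (21.3%, against 14.4%). The shares of ETS letters (6.38%, against 4.7%), SP/KLF letters (46.8%, against 43.5%) and E-box letters (9.57%, against 7.79%) were closer to those of other promoters. AGGTCA was present in 12 of 48 member promoters with a liver pair within 1 kb (25.0%) and in 8 of 46 without (17.4%). In brain the order was the other way, with 3 of 28 promoters with a peak within 1 kb (10.7%) and 17 of 66 without (25.8%). The NRF1 shares were 5 of 48 with a liver pair and 3 of 46 without, a difference of 2 genes.

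Genes that act around the respiratory chain differed by list. Of 18 regulators of respiratory genes, 4 had an eWAT peak within 10 kb (22.2%, against 14.2% of other genes), 10 a brain peak (55.6%, against 27.8%) and 12 a liver pair (66.7%, against 34.9%). Ppara, the fatty acid receptor of liver, had a liver pair of signal 11.2 (rank 15 of the list, 816 bp upstream), far above the 1.49 that was the highest near a respiratory chain gene. Esrra, the estrogen-related receptor alpha, had a brain peak (score 58.2, rank 764, 345 bp upstream) and a liver pair (signal 1.60, 324 bp upstream). Pprc1, a coactivator of the PGC-1 family, had sites in all 3 lists, and Ppargc1a, its best-known relative, a liver pair only (signal 0.857). Nrf1 had a brain peak 11 bp upstream of its start (rank 2589). Of 23 electron carriers and assembly factors named otherwise, 3, 10 and 9 had a site in eWAT, brain and liver (13.0%, 43.5% and 39.1%), led in brain by Atpaf2, an assembly factor of ATP synthase (rank 278). Their liver share was near the 34.9% of other genes and under the interval of the respiratory chain genes. Of 13 genes of the tricarboxylic acid cycle, 3, 7 and 9 did (23.1%, 53.8% and 69.2%), led in liver by Fh1, fumarase (signal 2.46).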

How the data were processed

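Rev-erbα binding in eWAT, brain and liver of mice was taken from 3 deposited lists, 1 per group. The submitters' processing notes name mm9, Bowtie 0.12.8 (ChIP-seq), Bowtie 1.1.1 (ChIP-exo) and HOMER, without roles. How peaks and borders were called, at which threshold, with or without inputs, and whether libraries were pooled is not given in the sources used here. Other thresholds would lengthen or shorten the lists. Each eWAT and brain peak carries the authors' score, whose unit the deposited files do not define. Borders of the ChIP-exo list come with a signal and a p-value per the file headers, both set by the authors and with no stated scale or test. Since the lists hold no value per library, depth and its precision could not be computed.

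From these, sites were placed by their centre against 70018 transcription starts of GENCODE vM1 on mm9 (NCBIM37). Negative distances are upstream on the strand of the gene. A member was counted when a site lay within 10 kb of any of its starts, and the same count was made over all other protein-coding genes. Border pairs closer than 100 bp to each other were merged into loci for motif counts, and a locus was counted by the window of its best-ranked pair. Intervals are 95% Wilson intervals. No test was run, since there is 1 list per group. In all, 15 motifs were searched on both strands as exact letters. Counting was tested on simulated data. Python 3.11.15, pandas 2.3.3, numpy 2.4.6 and statsmodels 0.14.6 were used.

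Genes named are, by rule, every member with an eWAT peak within 10 kb, the 12 members with the best-ranked brain peak, the 12 with the highest liver signal, and every member with a site in all 3 lists. Members without a site are named by symbol. Results for 1 gene that the rule selects are not reported here; it is in the counts. The genes of complexes II and III, Ndufc1, Ndufc2, Atp5k, Cox7a1, and genes named for a motif, a limit of distance or a wider pathway list were chosen after their values were seen. The members and lists were chosen with earlier results of these data known. Alternatives covered the distance, the assignment to the nearest gene, starts, score, border p-value, spacing and overlap. Those on CpG-rich promoters, on the nearest start within 10 kb and on 1 record for Ndufb8 were chosen after seeing the data.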

Additional observations from a re-analysis of the deposited data

How the results depend on the processing

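The eWAT count went from 13 of 94 within 10 kb to 3 within 1 kb (3.19%, against 3.59% of other genes) and 41 within 50 kb (43.6%, against 38.8%). It was 21 with each peak given to its nearest gene (22.3%, against 23.6%) and 7 with peaks above the median score (7.45%, against 7.6%). In brain, 38 became 68 within 50 kb (72.3%, against 51.0% of other genes) and 24 above the median score (25.5%, against 17.2%). With each peak given to its nearest gene it was 29 (30.9%, against 29.6% of other genes), and with only peaks closer to the member than to any other gene and within 10 kb it was 27 (28.7%, against 22%). In liver, 61 became 4 with borders of p 0.01 or less (4.26%, against 2.92%) and 91 with any single border (96.8%, against 77.4%). Among genes with CpG-rich promoters the counts of 48 were 6 in eWAT (12.5%, against 18.4%), 21 in brain (43.8%, against 43.2%) and 32 in liver (66.7%, against 48.0%). Of 7 eWAT peaks with a liver border, 1 had a border pair. Of the 48 brain peaks near members, 31 had a border within 100 bp, 24 within 50 bp and 40 within 200 bp, and 9 had a border pair within 100 bp. The cause of these shifts was not tested. Settings under which a count stayed within 1.5 times were 4 for eWAT, 6 for brain and 9 for liver, and it went further under 5, 3 and 2. This tally takes the count alone, without the share of other genes or the number of genes counted. The brain count by nearest gene is thus among the 6, although its 30.9% was close to the 29.6% of other genes.

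No paired analysis was possible because each group has 1 list with no value per replicate. For the same reason no replicate was left out. Depth is unknown, a gene without a listed site is only unlisted at the authors' threshold, and strength was not compared between lists.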
